A study of Mus musculus with 2 samples.

Results

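The cells described here are the T and natural killer (NK) cells of mouse pancreatic tumors, 99 of the 36642 cells that passed the quality limits in 2 single-cell RNA libraries (0.270%). They were chosen by their own unique molecular identifiers (UMIs, each of which stands for 1 captured RNA molecule). A cell needed at least 3 UMIs summed over Cd3d, Cd3e, Cd3g, Trac, Trbc2, Ncr1 and Klrb1c, with C1q genes under 0.1% of its UMIs, at most 3 UMIs of H2-Aa and H2-Ab1, and at most 2 UMIs of Krt8, Krt18 and Cdkn2a. The iIRE library held 26 of them among 18828 cells and the control library held 73 among 17814 cells.

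Both libraries came from orthotopic tumors of KPC cells, a line from a mouse model of pancreatic cancer, grown in the tail of the pancreas of C57BL/6 mice. In insufficient irreversible electroporation (iIRE), pulses between needles ablated a part of the tumor, and the residual tumor was collected 3 days later. The control tumors had needles inserted without pulses according to the methods, while the results call them untreated. According to the methods the mice were male and 5 to 7 weeks old when obtained, and how many mice went into a library is not given in the sources used here. A cell's library was read from the number at the end of its barcode, matched to the number in the library names, since no file used here states the order in which the libraries were joined. Each group is 1 library of 5′ single-cell RNA-seq, so no difference between the groups could be tested, and every interval below is an exact 95% interval that covers counting error only, not the spread between mice or between cells.

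T cells recognize antigen through a receptor of alpha and beta chains or of gamma and delta chains, which signals through the CD3 subunits. CD8 T cells kill cells that present foreign peptides, CD4 T cells help other immune cells, and regulatory T cells (Tregs), set by the transcription factor Foxp3, restrain them. NK cells kill with the same granule proteins without a rearranged receptor, and pancreatic tumors are known for holding few cytotoxic lymphocytes and many macrophages.

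The chosen cells carried T and NK cell genes and few of other cells. Cd3e, a subunit of the receptor complex, had a UMI in 84 of the 99 cells and Cd3g in 82, beside 0.17% of 2994 C1q-rich (macrophage-type) cells for each and 0.36% and 0.38% of 31871 keratin-rich (tumor-type) cells. Nkg7, a protein of cytotoxic granules, had a UMI in 54 of the cells, Foxp3 in 26 and Cd8a in 24. In C1q-rich cells these genes had a UMI in 0.20%, 0.53% and 0.00% of cells. Trbc2, a constant segment of the beta chain, had a UMI in 17 of the cells and 0.17% of C1q-rich cells. The chosen cells were shallow, with a median of 3112 UMIs, against 5943 in C1q-rich and 8319 in tumor-type cells, so the low shares in those cells were not set by depth. Since the CD3 genes and Trbc2 are among those that chose the cells, their levels are a description.

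Of 145 cells with at least 3 lineage UMIs, 46 missed another limit. The keratin limit took out 42 of them, at a median of 21710 UMIs, and 32 of these had at least 20 keratin UMIs while none had 3 to 5. At the threshold itself, 6 cells had exactly 3 lineage UMIs, 52 had at least 10, and 7 cells that met every other limit stayed outside with 2. No barcode sequence was shared between chosen cells of the libraries, and 1 of the cells had a barcode that also occurred in the other library, among 458 shared sequences in all.

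T and NK cells were a smaller share of the iIRE library. They were 0.138% of its cells (interval 0.0902 to 0.202%), against 0.410% in control (0.321 to 0.515%), a log2 ratio of -1.57 (interval -2.27 to -0.91). The intervals did not overlap. The iIRE cells were a little shallower, at 1561 to 13803 UMIs with a median of 2759, against 1258 to 17348 UMIs with a median of 3233 in control, and their lineage UMIs had a median of 7.5, against 13 in control. All cells of the iIRE library were shallower too, at a median of 6798.5 UMIs against 8549. Whether cells were lost from the tumor or in the preparation cannot be told apart from these counts.

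Each cell was then put in a marker group by its own UMIs. Cells with Foxp3 were Treg-marked, cells with Cd8a or Cd8b1 CD8-marked, cells with Cd4 alone CD4-marked, cells with Ncr1 or Klrb1c and at most 1 CD3 UMI NK-marked, and cells with Trdc, the delta constant segment, and a CD3 UMI without Trac gamma-delta-marked. Over both libraries, 25 cells were CD8-marked (25.3%), 25 Treg-marked, 11 NK-marked (11.1%), 6 gamma-delta-marked and 5 CD4-marked. A further 26 cells (26.3%) fell under none of these definitions and are called other T, at a median of only 2221 UMIs, and 1 cell carried markers of both CD8 T cells and Tregs. One UMI was enough for a group, so a cell that was shallow could miss its marker.

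CD8-marked cells were fewer in iIRE. They were 3 of 26 iIRE cells (11.5%, interval 2.45 to 30.2%), against 22 of 73 control cells (30.1%, 19.9 to 42.0%), and these intervals overlapped. As a share of all cells they were 0.0159% in iIRE (0.00329 to 0.0466%), against 0.123% in control (0.0774 to 0.187%), where the intervals did not overlap and the log2 ratio was -2.95 (-5.34 to -1.22). Treg-marked cells were 10 of 26 iIRE cells (38.5%, 20.2 to 59.4%), against 15 of 73 control cells (20.5%, 11.98 to 31.6%). Their log2 ratio was 0.90 among T and NK cells (-0.41 to 2.16) and -0.66 among all cells (-1.98 to 0.59), so its sign depends on the denominator and both intervals include 0. In counts, iIRE held 10 Treg-marked beside 3 CD8-marked cells and control held 15 beside 22.

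**Figure D1:**
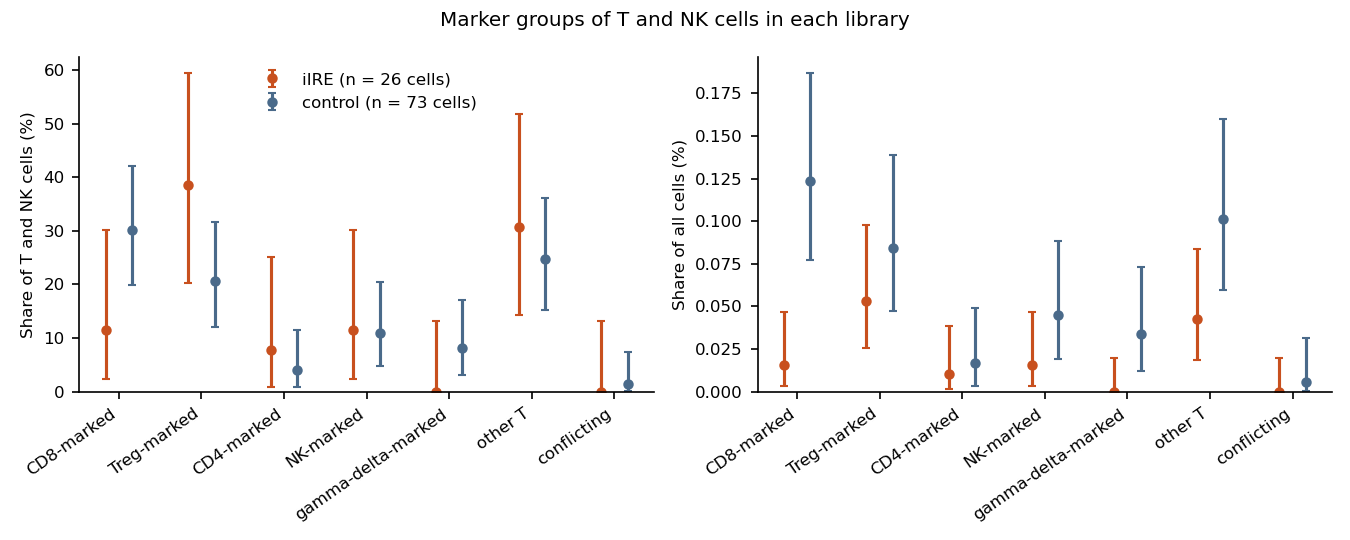
Share of each marker group among T and NK cells (left, %) and among all cells that passed the quality limits (right, %), for iIRE (left of each pair) and control; points are shares and bars exact 95% intervals of counting error. CD8-marked cells were 3 of 26 iIRE and 22 of 73 control cells, Treg-marked cells 10 of 26 and 15 of 73, and only for CD8-marked cells as a share of all cells were the intervals apart.

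NK-marked cells were 3 of 26 iIRE cells (11.5%), against 8 of 73 control cells (10.96%), a log2 ratio of 0.07 whose interval of -2.47 to 2.13 is too wide to show that the shares were alike. No iIRE cell was gamma-delta-marked, where 3 counts of 26 cells would be 11.5% and the exact upper limit is 13.2%, against 6 of 73 control cells (8.22%, 3.08 to 17.04%). CD4-marked cells were 2 iIRE and 3 control cells, and other T 8 iIRE (30.8%) and 18 control cells (24.7%). With each cell thinned to 1000 UMIs, 3 iIRE and 20 control cells were CD8-marked and 8 iIRE and 10 control cells Treg-marked.

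CD8-marked cells had a profile of granzyme K and inhibitory receptors with little of the main killing proteins. Nkg7 had a UMI in all 25 of them and Ccl5, a chemokine that draws T cells, in 22, at 4139 CPM (UMIs of the gene per 1000000 UMIs summed over the group). Gzmk, granzyme K, had 59 UMIs in 17 cells and 549 CPM, against 14.6 CPM in the other T and NK cells. Gzmb, granzyme B, had a UMI in 6 of the 25 cells, with 54.8% of its UMIs in 1 cell, Gzma in 1 cell, and Prf1, the pore protein perforin, in 1 cell. Ifng, interferon gamma, had 7 UMIs in 4 cells.

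Among inhibitory receptors of CD8-marked cells, Pdcd1 (PD-1) had a UMI in 18 of 25, Ctla4 in 16 and Tigit in 13, and Tox, a transcription factor of chronically stimulated T cells, in 11. Both Pdcd1 and Ctla4 were found in 12 of these cells and both Pdcd1 and Tox in 8. Lag3 had only 4 UMIs in 3 cells and Havcr2 (TIM-3) none, which at 25 cells of this depth does not show absence. Other genes that stood out were Themis, a signaling protein of the T cell receptor (13 cells, 242 CPM against 43.9 CPM in the other T and NK cells), Cd226, an activating receptor (16 cells, 307 against 84.1 CPM), and Dusp2, a phosphatase of MAP kinases (21 cells, 893 against 304 CPM). Egr1 and Fn1 also ranked high, but 1 cell held 76.7% and 83.3% of their UMIs in the group.

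The 3 iIRE CD8-marked cells each had UMIs of Gzmk, Pdcd1, Nkg7, Ccl5 and Ly6c2. Ctla4 had no UMI in these 3 cells, against 45 UMIs in 16 of 22 control CD8-marked cells. Gzmk had 3 to 5 UMIs in each of the 3 iIRE cells. It had 1 to 10 in the 15 control T and NK cells with a UMI of it, of which 1 was NK-marked. With 3 cells on one side, these counts show neither a loss of Ctla4 in iIRE nor another difference of level in this group.

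**Figure D2:**
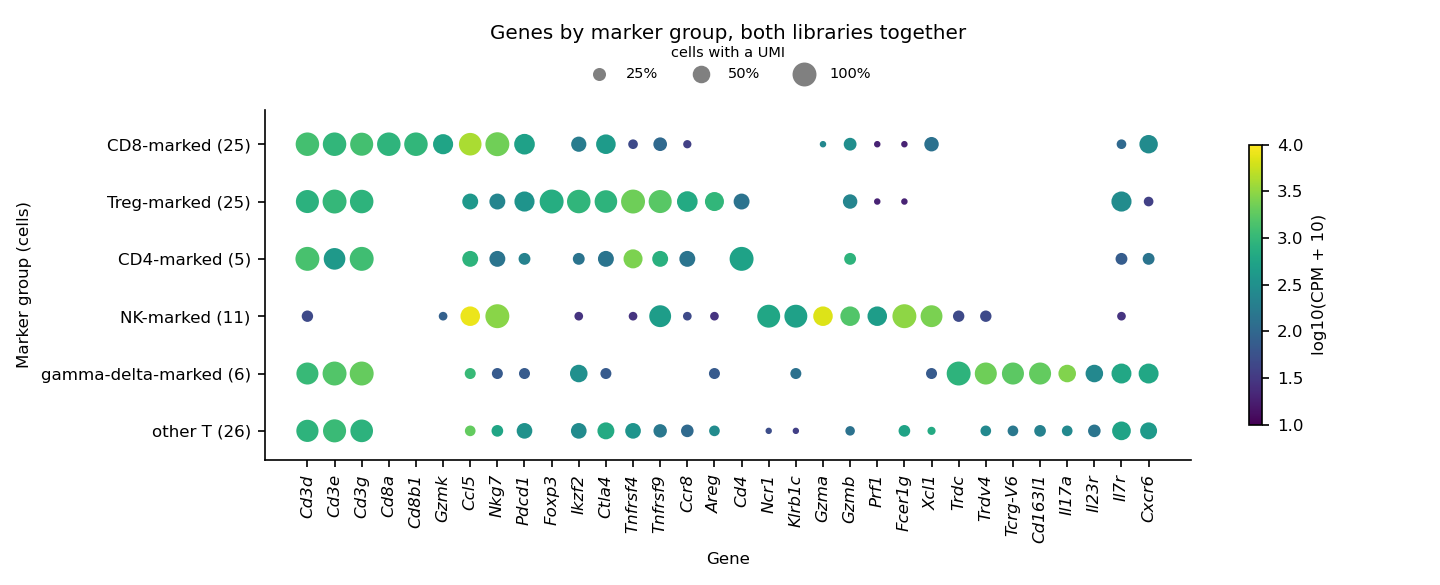
Genes (x axis) by marker group (y axis, number of cells in brackets), both libraries together; dot size is the share of cells with a UMI and color is log10 of CPM plus 10. Gzmk and Pdcd1 stand beside Cd8a in CD8-marked cells, Tnfrsf4, Tnfrsf9 and Ccr8 beside Foxp3 in Treg-marked cells, and Gzma and Prf1 lie almost wholly in NK-marked cells.

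Treg-marked cells carried the genes of activated tumor Tregs. Tnfrsf4 (OX40), a costimulatory receptor, had a UMI in all 25 cells at 2161 CPM, against 297 CPM in the other T and NK cells. CD4-marked cells also carried it, at 2559 CPM with a UMI in 3 of 5 cells. Tnfrsf9 (4-1BB) had a UMI in 23 cells and Tnfrsf18 (GITR) in 24. All 3 receptors were found together in 22 of the Treg-marked cells, against 1 of 25 CD8-marked cells and 29 of all 99 T and NK cells. Ikzf2 (Helios), a transcription factor of Tregs, had a UMI in 24 cells, Ctla4 in 22, Tigit in 21 and the chemokine receptor Ccr8 in 18 (646 against 66.0 CPM in the other cells). Ccr8 and Tnfrsf9 were found together in 17. Klrg1 (13 cells), Il1r2, a decoy receptor for interleukin-1 (10 cells), and Il1rl1, the receptor for interleukin-33 (9 cells), were in a part of the group. Il10 had 3 UMIs, all in 1 cell.

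Both libraries held enough Treg-marked cells to set levels side by side. Foxp3 had 793 CPM in 10 iIRE and 645 CPM in 15 control Treg-marked cells, Tnfrsf4 1922 and 2310 CPM, Tnfrsf9 1514 and 1770 CPM, and Ctla4 937 and 810 CPM. These differed by less than 1.5-fold. Ccr8 was 288 CPM with a UMI in 5 of 10 iIRE cells, against 870 CPM with a UMI in 13 of 15 control cells. Ltb, lymphotoxin beta, was 1778 CPM in iIRE and 1215 CPM in control.

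Areg, amphiregulin, a growth factor for epithelial cells that tissue Tregs make, was largely a gene of Treg-marked cells. They held 102 of its 124 UMIs, in 15 of 25 cells, while none of the 25 CD8-marked and 1 of the 11 NK-marked cells had a UMI of it. Tumor-type cells had a UMI of Areg in 38.5% and C1q-rich cells in 18.4%, and whether single UMIs came from free RNA was not tested. Of the cells with Areg, 3 of the 10 iIRE and 6 of the 12 control cells had only 1. In iIRE the 10 cells with Areg had 1 to 58 UMIs with a median of 4, against 1 to 6 with a median of 1.5 in the 12 control cells. The sums were 95 UMIs in iIRE (1008 CPM, interval 816 to 1233) and 29 in control (101 CPM, 67.7 to 145), a log2 ratio of 3.20. One iIRE cell held 58 of the 95 UMIs, and without the top cell of each library the log2 ratio was 2.16. Within Treg-marked cells the levels were 1850 CPM (77 UMIs in 7 of 10 cells) in iIRE and 375 CPM (25 UMIs in 8 of 15 cells) in control. The cell with 58 UMIs is one of these, and without the top cell of each library the levels in Treg-marked cells were 683 CPM in iIRE and 302 CPM in control.

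NK-marked cells were the main holders of cytotoxic granule genes. Gzma, granzyme A, had 375 UMIs in 7 of the 11 cells, 6889 CPM, against 79.6 CPM in the other T and NK cells. Prf1 had 24 of its 26 UMIs there, also in 7 cells, and Gzma and Prf1 were found together in 5 cells, all NK-marked. Fcer1g and Tyrobp, adaptors of activating receptors, had UMIs in all 11 cells at 3086 and 2131 CPM. The receptor genes Klre1 (10 cells) and Klra7 (7 cells) and the transcription factor Irf8 (10 cells) completed the leading genes. Xcl1, a chemokine for cross-presenting dendritic cells, had 135 UMIs in 9 NK-marked cells, but 1 cell held 59.3% of them.

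The 3 iIRE cells with Gzma had 26, 51 and 56 UMIs of it, and the 5 control cells had 19 to 148 with a median of 30. Of these iIRE cells 2 were NK-marked and 1 was CD8-marked, while all 5 of control were NK-marked. Klra7 had 33 UMIs in 8 control cells and none in the iIRE cells, which had 3 NK-marked cells against 8. At the control share of cells, 2.85 iIRE cells would have held it, so no lower level is shown.

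A set of gamma-delta T cells with interleukin-17 genes was visible in the receptor segments. The V segments Trdv4 and Tcrg-V6, which mouse gamma-delta T cells of the type that makes interleukin-17 rearrange together, had UMIs in 11 and 9 cells, and all 9 cells with Tcrg-V6 also had Trdv4. None of these 11 cells had a UMI of Trac, 2 had a UMI of a Trbv and 1 of a Trav segment, and none was CD8-, Treg- or CD4-marked. Of the 11, 5 were gamma-delta-marked, 4 were other T and 2 were NK-marked cells with a single Trdv4 UMI each. Trdv4 had no UMI in C1q-rich cells and a UMI in 0.08% of tumor-type cells. These cells were singled out after their values were seen, so what follows is a description.

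Cd163l1, a scavenger receptor of these gamma-delta cells, had 44 UMIs in 9 of the 11 cells and 1 UMI in the other 88 T and NK cells. Blk, a kinase, was in 8 of the 11 and in 2 of the 88, and Zbtb16 in 6 and 7. Il17a had 58 UMIs in 4 of the 11 cells, with 7, 10, 14 and 27 UMIs per cell. The other 3 cells with Il17a had 1 or 2 UMIs each and carried 4 to 16 UMIs of Trav or Trbv, the alpha and beta segments. Il23r, the receptor for interleukin-23, was in 3 of the 11 and 6 of the 88. Il22 had 15 UMIs in 5 cells, none of them among the 11.

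All 62 UMIs of Il17a were in 7 control cells. In iIRE there was none, against 216 CPM in control, where 4 cells held 58 of the UMIs. At the control share of cells, 2.49 iIRE cells would have held it, so neither an absence from the iIRE tumors nor a lower level is shown at this number of cells. Il23r (9 cells), Il1r1 (11 cells), Il22 (5 cells) and Trdc (8 cells) also had UMIs in control cells only, where 1.78 to 3.92 iIRE cells would have held each of them at the control share, so the same limit holds. Cells with Trdv4 were in both libraries, 3 of 26 in iIRE and 8 of 73 in control, and 2 of the iIRE cells had Cd163l1 and Tcrg-V6 as well. Il1r1 had a UMI in 16.1% of C1q-rich and 45.1% of tumor-type cells, and the part of free RNA in its single UMIs was not tested. The type 17 list had 3 genes with at least 50 UMIs, all past 2-fold lower, beside 3.08% of all 1232 genes with as many UMIs. They include Il17a, for which no lower level is shown. The other 2 were Tmem176a (7 UMIs in 2 iIRE cells against 46 in 13 control cells, -1.02) and Tmem176b (11 in 2 against 75 in 20, -1.10), which C1q-rich cells (55.8% and 71.6%) and tumor-type cells (77.7% and 90.2%) carry too. The median log2 ratio of the list, -1.10, is the value of Tmem176b, so setting Il17a to 3 counts in iIRE could not change it.

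**Figure D3:**
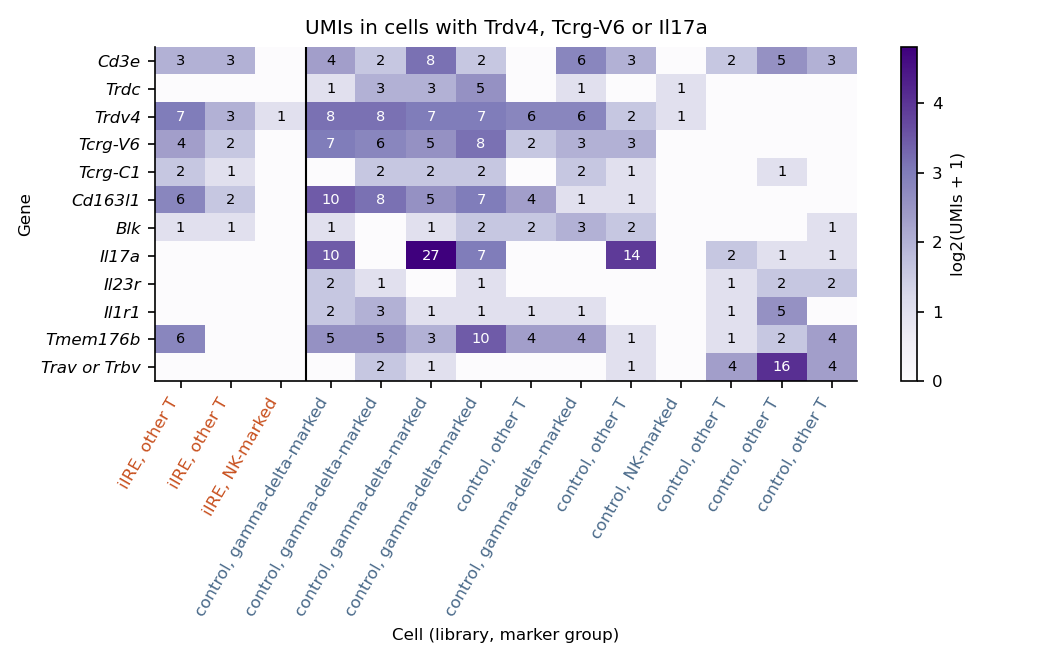
UMIs (numbers and color, log2 of UMIs plus 1, empty for 0) of receptor and type 17 genes (rows) in the 14 cells with a UMI of Trdv4, Tcrg-V6 or Il17a (columns), 3 iIRE cells left of the line and 11 control cells right of it. Il17a of 7 to 27 UMIs stands only with Trdv4 and Tcrg-V6, where 2 of the 4 cells also have 1 UMI of Trav or Trbv, and 1 or 2 UMIs of it stand in control cells with 4 to 16 UMIs of Trav or Trbv.

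Receptor segments of alpha-beta T cells were seen in most other cells. A Trbv segment had a UMI in 65 of the 99 cells, 17 of 26 in iIRE and 48 of 73 in control, and 53 of these had 1 segment and 12 had more. There were 15 different Trbv segments, 12 of them in iIRE and 14 in control. A Trav segment had a UMI in 45 cells, with 30 different segments. The constant segments gave fewer UMIs, with 22 of Trbc2, 14 of Trbc1 and 77 of Trac, against 326 of Trbv, in this library type that reads RNA from its 5′ end.

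Some segments were held by several cells of 1 group. Trbv3 was in 12 cells, of which 8 were CD8-marked and 4 Treg-marked, and Trav10 in 9 cells, of which 7 were CD8-marked. They stood together in 6 cells, 1 of iIRE and 5 of control, of which 5 were CD8-marked and 1 Treg-marked. Of 39 pairs of a Trav and a Trbv segment, in 33 cells, this was the most frequent, and the 5 other pairs found more than once were in 2 cells each. Trav9-1 was in 6 cells, all Treg-marked, and Trbv24 in 5 cells, all Treg-marked. Trbv3 and Trav10 had a UMI in 7 and 1 of the other 36543 cells. Segments of related sequence share reads, and without the joined sequence a shared pair is not a shared clone.

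The cells called other T were mixed. Of the 26, 1 iIRE cell had 3 UMIs of Ncr1 and 2 of Klrb1c and was kept from the NK-marked group by its 3 CD3 UMIs. Il7r, the receptor for interleukin-7, had a UMI in 15 of the 26 other T cells (536 CPM, against 172 in the remaining T and NK cells), Cxcr6, a homing receptor, in 12 and Tmem176b in 13. Of these cells, 4 had Trdv4 and Tcrg-V6 and 4 had Il17a, with 1 cell in both sets, so type 17 genes were a part of this group too. Its top gene, Spp1, rested on 1 cell with 84.2% of the UMIs. Clustering of the 99 cells without receptor genes gave 5 clusters. One held 21 of the 25 CD8-marked cells, one 19 of the 25 Treg-marked cells and one all 11 NK-marked cells. A cluster of 16 cells led by Cd163l1, Il17a and Serpinb1a held 5 of the 6 gamma-delta-marked and 10 of the 26 other T cells, and was 2 iIRE and 14 control cells. The last held 10 cells at a median of 6566 UMIs, led by Sparc and by genes of dividing cells. Sparc had a UMI in only 2 of these 10 cells, with 183 UMIs in a CD8-marked control cell that also held 474 UMIs of tumor genes.

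Dividing cells were few. At least 20 UMIs summed over a list of division genes were found in 5 of 26 iIRE cells, of which 4 were Treg-marked. In control they were found in 12 of 73 cells, of which 5 were CD8-marked, 4 Treg-marked and 2 NK-marked. Of these CD8-marked cells, 1 with 111 division UMIs also held 474 UMIs of tumor genes. The limit was not scaled to the depth of a cell. Mki67, a marker of cycling cells, had 6 UMIs in 1 iIRE cell and 41 UMIs in 8 control cells. Of 10 division genes with enough UMIs none was past 2-fold in either direction, with a median log2 ratio of 0.39. Without the top cell of each gene in each library that median was -0.72. That setting takes out 1 of 26 iIRE and 1 of 73 control cells and keeps the totals, so it tends to lower ratios. A Treg-marked iIRE cell of 13803 UMIs, the cell with 58 UMIs of Areg, held 347 of the 640 division UMIs of iIRE. In control the cell with most held 254 of 1575. Whether the sign of the median rests on single cells was not tested.

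Between the libraries, 1232 genes had at least 50 UMIs over the 99 cells, with a median log2 ratio of -0.02. Past 2-fold, 36 were higher in iIRE (2.92%) and 38 lower (3.08%). With totals scaled by TMM, a normalization to the bulk of the genes, 28 were higher and 52 lower and the median moved to -0.12. Without the 1 cell with most UMIs of a gene in each library, 22 were higher and 83 lower. This setting took out 1 of 26 iIRE and 1 of 73 control cells and kept the totals, so it tends to lower ratios. These 2 counts therefore do not show how far the list of genes depends on a few cells. The same tendency affects every ratio and median over all T and NK cells given without the top cells. Most ratios below come from under 100 UMIs on the iIRE side.

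Of 12 tested genes of the regulatory T cell list, 2 were past 2-fold higher in iIRE (2.92% over all tested genes) and none lower, with a median log2 ratio of 0.45 beside -0.02 over all tested genes. These were Areg, described above, and Foxp3, with 33 UMIs in 10 iIRE cells and 46 UMIs in 16 control cells. The log2 ratio of Foxp3 was 1.08, or 0.98 with TMM and 0.87 without the top cells. Since Foxp3 defines the Treg-marked cells, its ratio follows their numbers and is not a separate result. Within Treg-marked cells it was 0.29, or -0.04 without the top cells. Of 8 tested NK cell genes none was past 2-fold, with a median of 0.33. Of 5 tested genes of the CD8 T cell list, 2 were past 2-fold lower (3.08% over all tested genes), which were Cd8a (9 UMIs in 3 iIRE cells against 87 in 21 control cells, -1.57) and Cd8b1 (6 in 3 against 96 in 22, -2.23). Ccl5, with 176 UMIs in 13 iIRE cells against 919 in 33 control cells, had a log2 ratio of -0.78, and Nkg7 of -0.09. The ratios of Cd8a and Cd8b1 follow the numbers of CD8-marked cells and are the same result in other units. Ccl5 had a ratio of -0.77 without CD8-marked cells, where 351 of its 513 control UMIs lay in 5 NK-marked cells. Within Treg-marked cells it was higher in iIRE, at 697 CPM against 195 CPM in control. The part of the mix of groups in the ratio of Ccl5 was not tested.

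**Figure D4:**
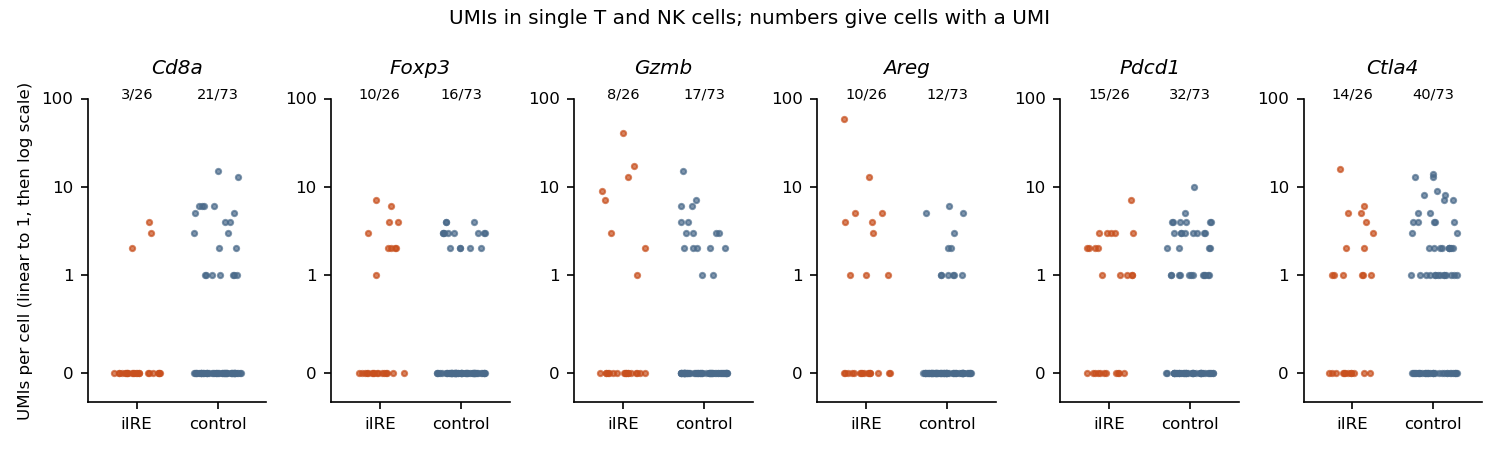
UMIs of 6 genes in each of the 26 iIRE (left) and 73 control (right) T and NK cells (y axis linear to 1 and logarithmic above), with the number of cells with a UMI above each column. Cd8a was in 3 iIRE and 21 control cells and Foxp3 in 10 and 16, and 1 iIRE cell with 58 UMIs stands far above the other cells for Areg.

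Inhibitory receptors did not separate the libraries. None of 6 tested genes was past 2-fold, and the median log2 ratio was 0.18, or -0.20 without the top cells. Pdcd1 had a UMI in 15 of 26 iIRE cells (35 UMIs), against 32 of 73 control cells (83 UMIs), a log2 ratio of 0.35, and Ctla4 in 14 (49 UMIs) against 40 (147 UMIs), a log2 ratio of 0.02. None of 8 costimulatory receptor genes and none of 6 heat shock genes was past 2-fold, with medians of 0.37 and -0.01. Of 10 cytotoxic genes only Gzmb was (2.92% higher over all tested genes), with 93 UMIs in 8 iIRE cells against 66 in 17 control cells and a log2 ratio of 2.05. Its UMIs per iIRE cell were 1 to 41 with a median of 8, against 1 to 15 with a median of 3 in control. Of the 93 UMIs, 50 lay in 2 NK-marked cells, and without the top cells the ratio was 1.58.

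Genes of the naive and memory list and of the chemokine list had more of their tested members on the iIRE side, with many UMIs in few cells. Of 5 tested naive and memory genes, 3 were past 2-fold higher and none lower, beside 2.92% higher over all tested genes, with a median of 1.16. Ccr7, which guides cells to lymph nodes, had 49 UMIs in 5 iIRE cells against 38 in 10 control cells (1.89), Ly6c2 had 71 in 6 against 78 in 17 (1.44) and Bcl2, which protects from cell death, 24 in 8 against 31 in 14 (1.16). Of the iIRE UMIs of Ccr7, 38 lay in 4 Treg-marked cells and 28 in 1 cell, while 1 control cell held 20. Outside CD8-marked cells Ly6c2 had 31 UMIs in 3 iIRE and 31 in 5 control cells, a ratio of 1.08, or 0.38 without the top cells. Of 4 chemokine genes, Ccl3 (33 UMIs in 6 iIRE cells against 28 in 12 control cells, 1.74) and Ccl4 (118 in 6 against 109 in 18, 1.69) were past 2-fold higher, beside the same 2.92%, and the list's median was 0.95. Without the top cells Ccl4 was 0.61 and the median -0.26. C1q-rich cells had a UMI of Ccl3 in 42.7% and of Ccl4 in 51.6%, while 0 of 25 and 1 of 25 Treg-marked cells had one. Among NK-marked cells, 2 of 3 iIRE cells held 91 UMIs of Ccl4, 77 of them in 1 cell, and 6 of 8 control cells held 46.

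Genes of tissue residency went both ways. Hilpda, a lipid droplet protein, had a UMI in 14 of 26 iIRE cells (44 UMIs), against 20 of 73 control cells (36 UMIs), a log2 ratio of 1.82, and Rgs2, a regulator of G protein signaling, in 19 iIRE cells (39 UMIs) against 24 control cells (35 UMIs), a ratio of 1.68. Its relative Rgs1 had 36 UMIs in 16 iIRE cells against 243 in 52 control cells, a ratio of -1.13. Without CD8-marked cells Hilpda was 1.53, Rgs2 1.70 and Rgs1 -1.13. Rgs2 had a UMI in 35.4% of C1q-rich cells and 2.24% of tumor-type cells, and Hilpda in 43.2% and 48.2%.

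Among genes lower in iIRE, Dusp2 had a UMI in 9 of 26 iIRE cells (15 UMIs), against 41 of 73 control cells (164 UMIs), a log2 ratio of -1.78. It was highest in CD8-marked cells, and without them the levels were 163 CPM in iIRE and 368 CPM in control, a ratio of -1.12, while in Treg-marked cells they were 216 and 210 CPM. Cd7, a surface receptor of T and NK cells, had 5 UMIs in 4 iIRE cells against 53 in 23 control cells (-1.63), and -1.71 without CD8-marked cells. Zap70, a kinase next to the receptor, was the 1 of 15 receptor complex genes past 2-fold, beside 3.08% lower over all tested genes. It had 8 UMIs in 7 iIRE cells against 60 in 40 control cells (-1.21). Tram1, a protein of the translocation channel of the endoplasmic reticulum, had a UMI in 6 of 26 iIRE cells (7 UMIs) against 37 of 73 control cells (61 UMIs), a ratio of -1.40, with no cell holding over 7.35% of its UMIs.

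**Figure D5:**
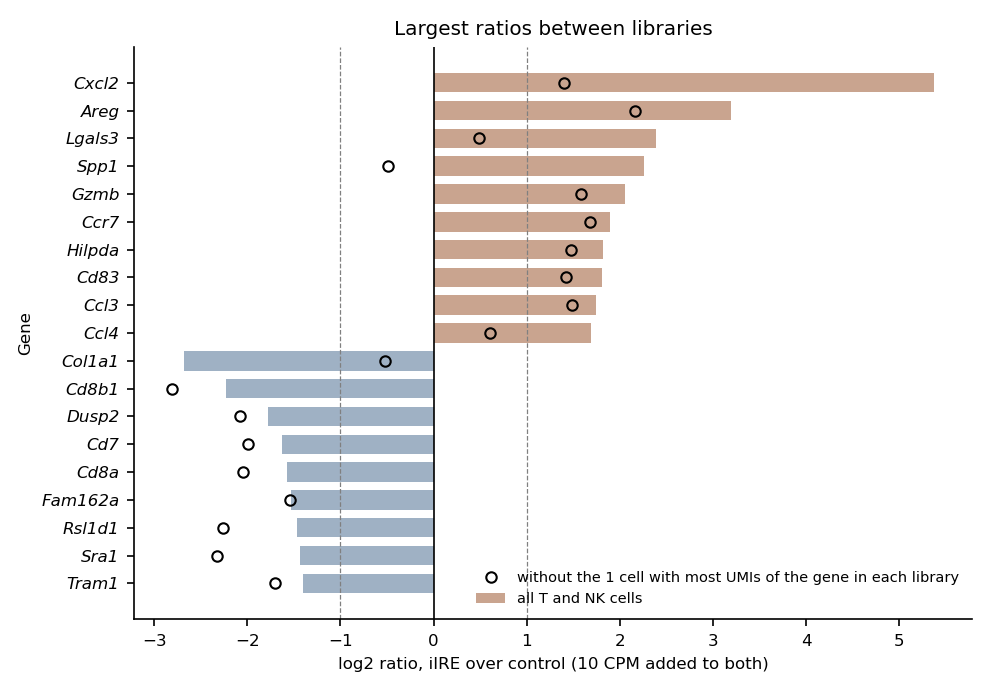
Log2 ratio of iIRE over control (x axis, 10 CPM added to both) for the 10 largest and 9 of the 10 smallest ratios (y axis) among genes found in 10% or more of either library's T and NK cells; bars are all T and NK cells, circles leave out the 1 cell with most UMIs of the gene in each library and dashed lines are 2-fold. The circle of Cxcl2 lies at 1.40 beside a bar of 5.37 and that of Spp1 on the other side of 0, while those of Dusp2, Cd7 and Tram1 lie beyond their bars. Circles tend to lie lower by construction, since totals were kept and 1 of 26 iIRE cells is a larger part than 1 of 73 control cells.

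Response genes showed single differences only, beside 2.92% higher and 3.08% lower over all tested genes. Of 14 immediate-early genes, Fos (20 UMIs in 12 iIRE cells against 127 in 40 control cells, -1.03) and Fosb (8 in 7 against 54 in 22, -1.06) were past 2-fold lower and the median was 0.14. Of 7 interferon-stimulated genes, Ifi27l2a was past 2-fold higher, with 266 UMIs in 20 iIRE cells against 365 in 46 control cells (1.14), and the median was 0.35. Within Treg-marked cells Ifi27l2a was 4109 CPM in iIRE and 2850 CPM in control, or 4530 and 1953 CPM without the top cell of each library. Of 8 trafficking genes Ccr7 was higher and Itgb1, an integrin, lower (21 UMIs in 13 iIRE cells against 144 in 40 control cells, -1.14). Cytokines were sparse, with no UMI of Il4, Il13 or Il21 in the 99 cells, 18 of Ifng in 9 cells and 8 of Tnf in 6.

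Markers of other cells differed between the libraries largely through 3 cells. Summed genes of macrophages, of which 11 of 12 had a UMI, were 1062 CPM in iIRE and 307 CPM in control, with 94 of their 188 UMIs in 1 iIRE cell of the other T group. Those of neutrophils were 1284 CPM in iIRE and 314 CPM in control, with 106 of 211 UMIs in that same cell and 65 in 1 Treg-marked control cell, which held all UMIs of S100a8 and S100a9. Cxcl2, a neutrophil chemokine, had 101 of its 111 UMIs in that cell, and Lgals3 and Spp1, also among the largest ratios, had 51.8% and 58.2% of their UMIs in 1 cell. Summed tumor genes were 117 CPM in iIRE and 1772 CPM in control, with 91.3% in 1 CD8-marked control cell of 17348 UMIs, and 1 cell held 83.1% of the UMIs of Col1a1. Dendritic cell genes were 584 CPM in iIRE and 181 CPM in control, with 8.41% of the UMIs in the top cell, and their part in the ratios was not tested. Of the macrophage list, 21 of 26 iIRE cells and 41 of 73 control cells had no UMI, and of the tumor list 16 and 52. Without the iIRE cell and the CD8-marked control cell, 26 genes were past 2-fold higher and 24 lower, the CD8-marked log2 ratio was -1.28 and the Treg-marked one 0.94. Red cell genes were at 0, Cd79a of B cells at 0, and acinar genes at 223 CPM in iIRE and 90.7 CPM in control.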

How the data were processed

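The deposited counts are raw UMIs per gene and barcode of both libraries in 1 matrix of 32285 genes and 37971 barcodes, which the authors obtained on mm10 from Cell Ranger and its STAR aligner. Its header and the methods name different Cell Ranger versions. A barcode ending of 2 was taken as iIRE and of 1 as control, from the numbers in the library names.

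Cells needed at least 1000 UMIs and 200 genes and at most 5% mitochondrial UMIs. Levels are CPM of UMIs summed over cells. Log2 ratios are iIRE over control after adding 10 CPM, for genes with at least 50 UMIs, and 2-fold was the limit for a gene to be counted. Intervals are exact (Clopper-Pearson for shares, Poisson for UMIs, conditional for ratios). The floor for a count of 0 is 3 counts. Clusters came from the Leiden method (leidenalg 0.10.2) on 15 principal components. TMM used edgeR 4.0.16, and other steps Python 3.11.15. The ratio steps were tested on simulated data. Doublets were scored against simulated sums but removed only as an alternative. The members and gene lists were chosen with earlier results of these data known. Named genes are the gate genes, those with the highest CPM in a list, the 10 leading genes of a marker group and the 10 largest and smallest ratios. Named outside this rule, after their values were seen, were receptor segments, the type 17 genes in single cells and list genes past 2-fold. Some genes are not reported here.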

Additional observations from a re-analysis of the deposited data

How the results depend on the processing

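Each group is 1 library, so no replicate could be left out, and no paired analysis was possible because each group holds a single library. The log2 ratio of the T and NK cell share was -1.61 to -1.42 over 6 alternatives, that of the CD8-marked share -2.95 to -1.25 over 8, that of the Treg-marked share -0.66 to 1.17 and that of the NK-marked share -1.49 to 0.90. The lowest value of each of these marker groups (-2.95, -0.66 and -1.49) came from taking shares of all cells, which is another measure than the share of T and NK cells. The numbers of genes past 2-fold changed most. With 50 CPM added, 21 were lower and 47 past 2-fold in all. With at least 20 UMIs, 123 were higher and 207 lower (330 in all of 3161 tested), and with at least 100 UMIs 11 and 10 (21 in all of 554). Without the top cell of each gene and with totals kept, a setting that tends to lower ratios, 22 were higher and 83 lower. Without the 2 cells with at least 20 UMIs of macrophage genes, an alternative added after the data were seen, 24 were lower. Removing the cells with the highest simulated-doublet scores took out 15.1% of iIRE and 14.3% of control cells, and none of the 99 cells. The cells with many UMIs of macrophage, neutrophil or tumor genes were among those kept, so this score does not show that the 99 cells hold no doublets. With at least 2 lineage UMIs, the median of the tumor genes turned to 2.61 and Col1a1 to 4.19, and without the top cells Spp1 turned to -0.49. Resolutions of 0.5 and 2.0 gave 4 and 7 clusters. Depth limits every statement on a group, since at most 26 cells stand behind it.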
